A study of Homo sapiens with 4 samples.

Results

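The CDK inhibitor genes comprise the CIP/KIP family (CDKN1A, CDKN1B and CDKN1C, which encode p21, p27 and p57) and the INK4 family (CDKN2A, CDKN2B, CDKN2C and CDKN2D, which encode p16, p15, p18 and p19). All 7 were taken by gene symbol from a deposited count table of 20263 genes, whatever their counts, and all 7 have a row there. The table gives mRNA of MDA-MB-231, a human breast cancer cell line that lacks hormone receptors, has a mesenchymal character and carries mutant p53, after 24 h with YW-LF (2 libraries, YW-LF 1 and 2) or with the solvent DMSO (2 libraries, DMSO 1 and 2). The series title presents YW-LF as derived from ribociclib, a drug that blocks CDK4 and CDK6, and links it to the p53 pathway. No source used here states the dose. No label says that the libraries of a group came from separate cultures, so the spread between them may be technical.

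Cyclin-dependent kinases drive the cell cycle when bound to cyclins, and the CDK inhibitors hold them back. CIP/KIP proteins bind whole cyclin-CDK complexes, chiefly those of CDK2, and also help cyclin D-CDK4 complexes to assemble. INK4 proteins are small ankyrin repeat proteins that bind CDK4 and CDK6 alone and keep cyclin D away from them, which is the same pair of kinases that ribociclib inhibits. CDKN1A is the classical p53 target gene, CDKN1B is governed largely through breakdown of its protein, and CDKN2A and CDKN2B lie side by side in a stretch of chromosome 9 that is often lost in tumours. MDA-MB-231 is known as a line that has lost CDKN2A.

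In cells given YW-LF, CDKN1A mRNA was 5.36-fold higher than in cells given DMSO, and CDKN1B, CDKN1C and CDKN2D were 1.61-fold, 2.06-fold and 1.92-fold higher. CDKN2C was 1.97-fold lower and was the single member on that side. CDKN2A and CDKN2B were at or near 0 in all 4 libraries. In edgeR's quasi-likelihood test no member passed Benjamini-Hochberg adjustment over the 13816 genes tested, and neither did any other gene (0 higher and 0 lower, against 1585 and 1245 at an unadjusted p under 0.05). In bulk RNA, fewer cells with a transcript and less of it per cell cannot be told apart. The fits in which members did pass are given beside each gene.

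The libraries held 40218240 and 36886858 counts for YW-LF and 34774542 and 37754168 for DMSO. Values are CPM (a gene's count brought to one fixed library total), scaled between libraries by the trimmed mean of M-values (TMM), so that 1 count was worth 0.0199 to 0.0324 CPM. The YW-LF libraries correlated with each other less closely (Pearson r across genes 0.907 in log2 CPM) than the DMSO libraries did (0.976). YW-LF 1 correlated more closely with DMSO 1 (0.921) and DMSO 2 (0.910) than with YW-LF 2, which stood furthest from DMSO (0.866 and 0.861). The share of counts from genes of the mitochondrial genome was 3.14% and 6.58% in YW-LF against 8.68% and 21.7% in DMSO, and the part of this difference in the results below was not tested. Genes that mark the labelled line were plentiful: vimentin (VIM) ranged from 2122 to 4154 CPM. Of 8 luminal markers, CDH1 (E-cadherin) reached at most 0.259 CPM, ESR1 (the oestrogen receptor) 0.657 CPM and PGR 1.73 CPM, whereas EPCAM reached 9.35 CPM and GATA3 21.4 CPM. The luminal keratins were plentiful, at 181 to 433 CPM for KRT8, 70.3 to 304 CPM for KRT18 and 68.97 to 270 CPM for KRT19 over the 4 libraries. The T cell marker CD3E was at 0 in every library and the leukocyte marker PTPRC was at most at 0.588 CPM.

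The set of RefSeq promoter windows used here (build GRCh38.p14) holds 9 windows for 6 of the 7 members. Each runs from 250 bases before to 50 bases after a transcript start. The set has no window for CDKN1C, which is a gap of the set used. CDKN1A and CDKN2C are shown because their log2 fold changes were the highest and the lowest of the members, and CDKN2D because it is the INK4 gene that stood on the other side from CDKN2C. Capitals mark the GC box GGGCGG, read on either strand, in CDKN1A and CDKN2D, and the E2F motif in CDKN2C. The E2F motif was searched as TTCCCGC or TTGGCGC on either strand.
CDKN1A (chr6:36678464-36678763, plus strand): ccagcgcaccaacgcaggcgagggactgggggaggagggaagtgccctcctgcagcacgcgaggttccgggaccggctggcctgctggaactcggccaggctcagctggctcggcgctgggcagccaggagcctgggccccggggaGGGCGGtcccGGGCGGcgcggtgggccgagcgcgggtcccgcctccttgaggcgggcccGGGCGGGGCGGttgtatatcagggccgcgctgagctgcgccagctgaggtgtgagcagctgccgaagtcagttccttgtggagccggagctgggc
CDKN2C (chr1:50968456-50968755, plus strand): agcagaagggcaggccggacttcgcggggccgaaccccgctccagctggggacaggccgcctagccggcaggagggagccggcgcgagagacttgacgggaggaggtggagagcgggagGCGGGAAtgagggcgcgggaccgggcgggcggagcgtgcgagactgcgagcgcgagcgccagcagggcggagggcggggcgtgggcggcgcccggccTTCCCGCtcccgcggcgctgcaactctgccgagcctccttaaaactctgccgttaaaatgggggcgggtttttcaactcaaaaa
CDKN2D (chr19:10568930-10569229, minus strand): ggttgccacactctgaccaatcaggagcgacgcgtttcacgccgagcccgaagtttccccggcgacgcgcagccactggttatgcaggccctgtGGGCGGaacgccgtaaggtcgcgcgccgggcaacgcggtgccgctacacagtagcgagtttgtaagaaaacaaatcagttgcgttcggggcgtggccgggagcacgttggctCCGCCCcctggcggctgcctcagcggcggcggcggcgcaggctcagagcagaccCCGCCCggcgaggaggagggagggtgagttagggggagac
The CDKN1A window holds 4 GC boxes, at -104, -94, -45 and -40 from the start site, and the last 2 of them share a base. The CDKN2D window holds 3. The CDKN2C window shown is the middle one of 3 in the set for this gene. It holds E2F letters at -131 and -34, besides 6 GC boxes that are left in lower case. No other window of a member holds the E2F letters. They thus occur in 1 of the 9 windows, beside 9.23% of all 35116 windows of this length. The GC box occurs in 7 of the 9, beside 45.0% of all windows. A match of letters is a description, and the counts per gene do not say which start a transcript used.

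CDKN1A (ENSG00000124762, chromosome 6, 36676460 to 36687339 in GRCh38 as annotated by GENCODE 29) encodes p21, which inhibits cyclin-CDK2 and binds the replication clamp PCNA. It stood at 167 and 115 CPM in the YW-LF libraries, against 33.8 and 18.7 CPM in the DMSO libraries. Every YW-LF library lay above every DMSO library, and the 4 library pairs gave log2 ratios between 1.76 and 3.15. The fitted log2 fold change was 2.42 (SE 0.46, 95% interval 1.32 to 3.52, n = 2 each), higher than that of 96.5% of genes tested, and its p was the 148th lowest (edgeR adjusted p = 0.121). DESeq2 called CDKN1A higher (adjusted p = 9.2e-05), as it did 6.02% of the genes it tested. So did edgeR without a count filter (adjusted p = 0.041, 0.927% of genes called higher and 0.718% lower) and with a replicate block (adjusted p = 0.023, 1.35% called higher and 1.05% lower). The antisense RNA gene DINOL overlaps CDKN1A in the annotation, and as no source used here says that counting used strand, reads from both strands cannot be told apart.

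CDKN1B (ENSG00000111276, chromosome 12, 12715058 to 12722371) encodes p27, the inhibitor that holds cyclin-CDK2 in check in resting cells. It stood at 90.8 and 69.4 CPM in YW-LF against 53.9 and 45.3 CPM in DMSO. The groups did not overlap, but the lower YW-LF library was only 0.36 above the higher DMSO library on the log2 scale. The log2 fold change was 0.69 (SE 0.36, 95% interval -0.168 to 1.55), with an edgeR adjusted p of 0.320 and a DESeq2 adjusted p of 0.360. The gene passed in none of the 12 alternative fits. The annotation puts AC008115.3 on the same strand within this span, so some reads may be shared.

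CDKN1C (ENSG00000129757, chromosome 11, 2883213 to 2885773) encodes p57, an imprinted inhibitor best known from development. It was the scarcest of the 5 members with counts in every library, at 324 and 257 counts in YW-LF and 152 and 104 in DMSO. On the CPM scale this was 6.45 and 8.32 in YW-LF against 4.06 and 3.11 in DMSO, and the groups did not overlap. The log2 fold change was 1.04 (SE 0.53, 95% interval -0.220 to 2.30, edgeR adjusted p = 0.309). Without YW-LF replicate 1 it was 1.21 and passed (adjusted p = 0.034), in a fit that called 21% of all genes higher and 20.7% lower.

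CDKN2C (ENSG00000123080, chromosome 1, 50960745 to 50974633) encodes p18, an INK4 inhibitor of CDK6 and CDK4. It stood at 13.99 and 24.7 CPM in YW-LF against 36.5 and 39.5 CPM in DMSO. The groups did not overlap, and YW-LF 1 lay lowest. The log2 fold change was -0.98 (SE 0.42, 95% interval -1.98 to 0.0249, edgeR adjusted p = 0.251). It was -1.45 without YW-LF replicate 2, where the gene passed (adjusted p = 0.016) along with 10.2% of all genes called lower and 10.1% higher, and -0.63 without YW-LF replicate 1, where it did not.

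CDKN2D (ENSG00000129355, chromosome 19, 10566462 to 10569059) encodes p19, the other INK4 inhibitor with counts. It stood at 28.95 and 28.5 CPM in YW-LF against 16.9 and 13.0 CPM in DMSO. The YW-LF libraries were nearly equal, 0.019 apart on the log2 scale, whereas CDKN2C differed by -0.82 between the same libraries (YW-LF 1 over YW-LF 2). The log2 fold change of CDKN2D was 0.94 (SE 0.38, 95% interval 0.0383 to 1.84, edgeR adjusted p = 0.234), and the gene passed without YW-LF replicate 1 (0.93, adjusted p = 0.032), where 21% of all genes were called higher.

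**Figure D1:**
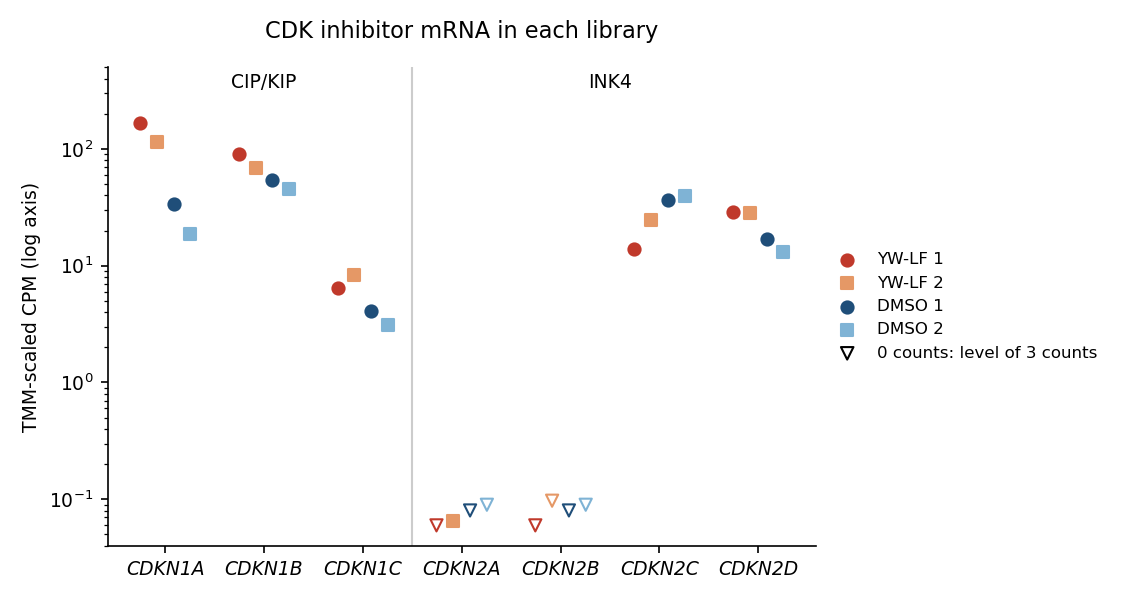
TMM-scaled CPM on a log axis for the 7 CDK inhibitor genes in the 2 YW-LF and 2 DMSO libraries, 1 point per library, with open triangles at the level of 3 counts where a library had 0. CDKN1A, CDKN1B, CDKN1C and CDKN2D sit higher in both YW-LF libraries, CDKN2C sits lower, and CDKN2A and CDKN2B lie below 0.1 CPM throughout.

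**Figure D2:**
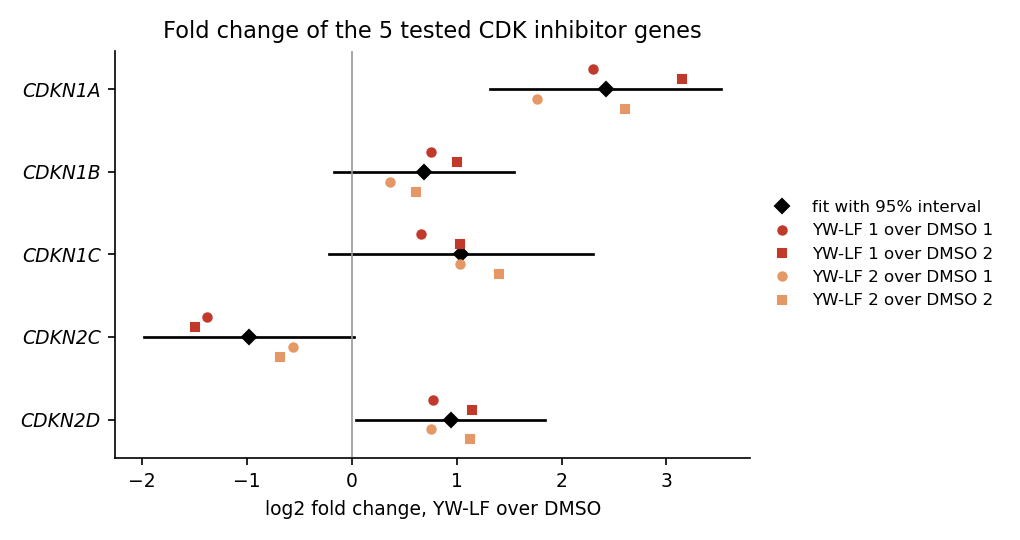
Log2 fold change of the 5 tested members, YW-LF over DMSO, from the edgeR fit (diamonds with 95% intervals) and for each of the 4 pairs of libraries (coloured points). The intervals of CDKN1A and CDKN2D lie above 0, and those of the other 3 members include it.

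Of the 7 members, 5 passed the count filter, each with at least 104 counts in every library. Of these 5, 4 were higher in each YW-LF library than in any DMSO library, as were 28% of all genes tested, and 1 was lower, as were 27.8%. Over all genes 55.8% had groups apart in one direction or the other. At an unadjusted p under 0.05 there were 2 members higher (CDKN1A and CDKN2D) and 0 lower, against 11.5% of all genes higher and 9.01% lower. In edgeR after adjustment 0% of genes were called in either direction. When 1 YW-LF library was left out the spread came from the DMSO pair alone, so that the passes above in such fits rest on the lone YW-LF library varying like DMSO. CDKN1A passed with either YW-LF library left out (adjusted p = 0.0024 without replicate 1, where 21% of genes were called higher, and 0.0069 without replicate 2, where 10.1% were) but with neither DMSO library left out.

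CDKN2A (ENSG00000147889, chromosome 9, 21967753 to 21995301), the gene of p16 and of the p53 activator ARF, had 0 counts in YW-LF 1, 2 counts in YW-LF 2 and 0 in both DMSO libraries. CDKN2B (ENSG00000147883, chromosome 9, 22002903 to 22009363), the gene of p15, had 0 counts in all 4. A count of 0 allows up to 3 counts, or 0.0597 and 0.0971 CPM in YW-LF 1 and 2 and 0.0801 and 0.0897 CPM in DMSO 1 and 2 (a limit for counting error only). Neither gene entered the main test, and no fold is given because neither had more than 2 counts in any library. The limit is for counts of 0 and does not bound CDKN2A in YW-LF 2, where 2 counts were 0.0647 CPM. CDKN2A, with its 2 counts, entered the edgeR fit without a count filter and did not pass there (adjusted p = 0.687). The gene ENSG00000264545, which had 0 counts in all 4 libraries, overlaps both genes on the opposite strand. Reads that fall in 2 genes may have been dropped in counting, which was not tested. The genes share a near-identical stretch, so the 2 counts of CDKN2A are uncertain as to gene.

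The zeros extended to the neighbours on chromosome 9. Within 3 Mb of CDKN2A the table holds 33 other genes, and 23 of them had 0 counts in all 4 libraries. Over the whole table, 16718 of 20263 genes had at least 1 count in total. From HACD4 to IZUMO3 (20999515 to 24545946, 3.55 Mb) lie 25 consecutive genes of the table, CDKN2A and CDKN2B among them, and the 2 counts of CDKN2A were the only ones in this stretch. It includes MTAP, an enzyme of methionine salvage, and KLHL9, a ubiquitin ligase adaptor, which most human cells express, besides 16 type I interferon genes, which resting cells hardly express. The interferon genes are close copies of each other, so their reads can be lost in counting. MTAP shares most of its span with ENSG00000264545 (21802636 to 22032986), so reads there may have been lost as well. Beyond CDKN2B the stretch holds only DMRTA1, ELAVL2 and IZUMO3. Whether breast cells would express these genes at all was not tested. On one side the stretch ends at FOCAD, with 213 and 151 counts in YW-LF and 117 and 86 in DMSO. On the other side the next gene of the table, TUSC1 (chosen after its values were seen), had 289 and 48 counts in YW-LF and 260 and 250 in DMSO. Of the 8 neighbours that were tested, 3 had both YW-LF libraries above DMSO, 2 had both below and 3 overlapped, beside 28% of all genes above and 27.8% below. DNA was not measured here.

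**Figure D3:**
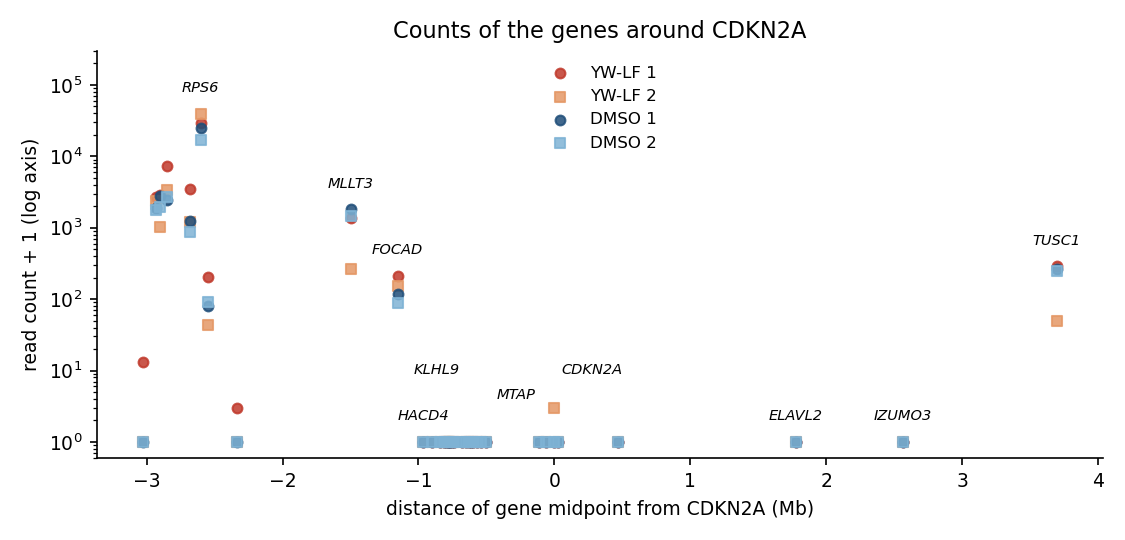
Read count plus 1 on a log axis against the distance of each gene's midpoint from CDKN2A in Mb, for the genes of the table within 3 Mb and for TUSC1, 1 point per library. Between FOCAD and TUSC1 every point lies at a count of 0 except that of CDKN2A in YW-LF 2, which lies at 2.

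Divided by exon length (the union of a gene's exons), the levels of the genes can be set beside each other. The levels, their order and the shares below depend on the length chosen. For CDKN1A the union is 3050 bases and the longest transcript 2267. Order and shares were not recomputed with the longest transcript. In YW-LF the order of mean CPM per kb was CDKN1A (46.2 ± 12.1), CDKN1B (28.5 ± 5.39), CDKN2D (19.1 ± 0.190), CDKN2C (5.82 ± 2.28) and CDKN1C (2.98 ± 0.534; mean ± SD, n = 2 each). In DMSO it was CDKN1B (17.7 ± 2.16), CDKN2C (11.5 ± 0.646), CDKN2D (9.96 ± 1.82), CDKN1A (8.61 ± 3.49) and CDKN1C (1.45 ± 0.271). In YW-LF no neighbours in this order overlapped between libraries. In DMSO CDKN1A, CDKN2C and CDKN2D did not differ beyond their spread: CDKN1A ranged from 6.14 to 11.1 CPM per kb, CDKN2C from 11.0025 to 11.9 and CDKN2D from 8.67 to 11.2. CDKN1B, which led in both DMSO libraries, came after CDKN1A in both YW-LF libraries.

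As a share of the summed CPM per kb of all 7 members, CDKN1A made up 48.4% and 40.8% in YW-LF against 20.5% and 13.9% in DMSO. CDKN2C made up 3.73% and 8.07% in YW-LF against 20.3% and 27.0% in DMSO. CDKN1B held 28.6% and 26.8% in YW-LF and 35.4% and 36.6% in DMSO, so its share was lower although its level was higher. The shares of CDKN2D (17.03% and 20.6% in YW-LF, 20.8% and 19.7% in DMSO) and of CDKN1C (2.30% and 3.65% in YW-LF, 3.03% and 2.84% in DMSO) overlapped between the groups. Within the INK4 family, CDKN2D supplied 82.0% and 71.8% of the summed level in YW-LF against 50.5% and 42.1% in DMSO.

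**Figure D4:**
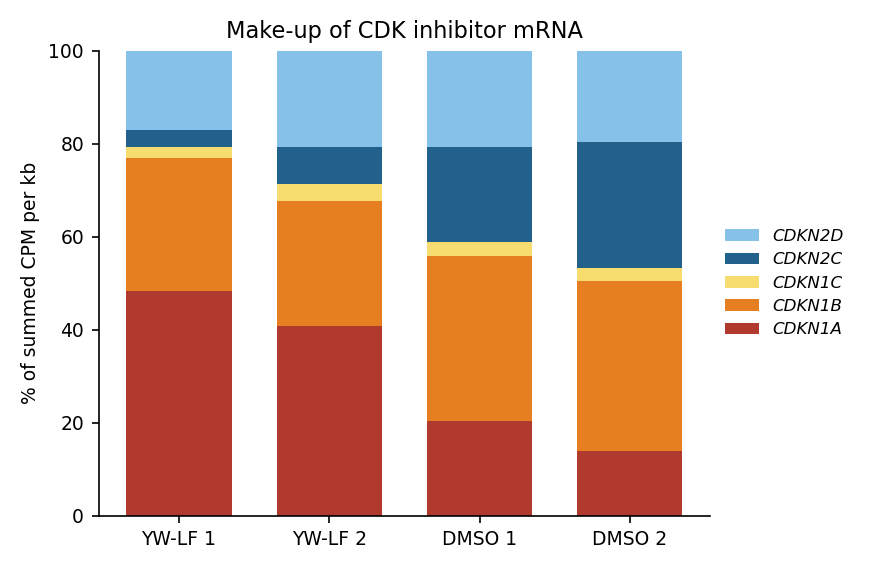
Share of each CDK inhibitor gene in the summed CPM per kb of exon of all 7, in percent, 1 bar per library, YW-LF on the left and DMSO on the right. CDKN1A takes 48.4% and 40.8% of the bars of YW-LF against 20.5% and 13.9% of those of DMSO, and CDKN2C takes 3.73% and 8.07% of those of YW-LF against 20.3% and 27.0% of those of DMSO.

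A ratio of 2 genes within a library does not depend on how libraries are scaled. Among the 10 pairs of the 5 members with counts, the ratio differed without overlap between the groups in 8. The pairs reuse the same 5 genes, and the share over all pairs of genes was not computed. Of single genes, 55.8% had groups apart. CDKN1A over CDKN2C was 13.0 and 5.06 in YW-LF against 1.01 and 0.516 in DMSO (per kb), a log2 difference of 3.49. CDKN1A over CDKN1B was 1.69 and 1.52 in YW-LF against 0.577 and 0.381 in DMSO (log2 difference 1.78), and CDKN2D over CDKN2C was 4.57 and 2.56 in YW-LF against 1.02 and 0.728 in DMSO (1.99). The ratio of CDKN1C to CDKN2D, at a log2 difference of 0.090, and that of CDKN1B to CDKN1C, at -0.36, overlapped. With 2 libraries against 2, the exact two-sided permutation test cannot give a p below 0.33, which is the p of all 8 ratios that did not overlap (0.417 adjusted over the 10 pairs).

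The kinases that these proteins bind gave a further scale. CDK2 stood at 31.1 and 45.7 CPM in YW-LF against 75.3 and 57.3 CPM in DMSO (log2 fold change -0.79, SE 0.38, edgeR adjusted p = 0.295). CDKN1A over CDK2, per kb, was 6.84 and 3.20 in YW-LF against 0.573 and 0.418 in DMSO, and CDKN1B over CDK2 was 4.04 and 2.10 in YW-LF against 0.992 and 1.10 in DMSO. CDK4 stood at 69.5 and 160 CPM in YW-LF against 55.4 and 58.2 CPM in DMSO, and CDK6 at 50.7 and 126 CPM in YW-LF against 91.0 and 64.9 CPM in DMSO, with overlap for CDK6. CDKN2C over CDK4 was 0.192 and 0.147 in YW-LF against 0.629 and 0.649 in DMSO. CDKN2D over CDK4 overlapped, at 0.877 and 0.375 in YW-LF and 0.643 and 0.472 in DMSO. The summed INK4 level over that of CDK4 and CDK6 overlapped as well, at 0.900 and 0.434 in YW-LF and 0.893 and 0.870 in DMSO. The summed level of all 7 inhibitors over that of CDK1, CDK2, CDK4 and CDK6 was 2.28 and 0.9998 in YW-LF against 0.780 and 0.729 in DMSO. Of the 13 ratios computed in this family, 11 did not overlap, each with an exact two-sided permutation p of 0.33 (0.394 adjusted over the 13), the smallest the design allows. These ratios share genes as well, and the share over ratios of other genes was not computed.

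Among the 13 CDK and cyclin partners of the inhibitors, 9 were lower in each YW-LF library than in any DMSO library, 1 was higher (CDK4) and 3 overlapped, beside 27.8% of all genes lower and 28% higher. The median log2 fold change was -0.63, beside 0.063 over all genes tested. The 4 members of lowest p were cyclin genes. CCNE2, for cyclin E2 (which activates CDK2), was at 4.24 and 2.85 CPM in YW-LF against 61.1 and 58.9 CPM in DMSO. CCNA2, for cyclin A2, which serves CDK2 and CDK1 in S phase and G2, was at 48.8 and 31.8 CPM in YW-LF against 162 and 147 CPM in DMSO. CCND1, for cyclin D1, had a log2 fold change of -1.46 (SE 0.45), and CCNE1, for cyclin E1, of -1.32 (SE 0.41). Over all genes 0 of the 13 passed in edgeR, 5 were lower at an unadjusted p under 0.05 (9.01% of all genes) and 0 higher. DESeq2 called 3 lower (CCNE2, CCNA2 and CCND1) and 0 higher, where it called 4.58% of all genes lower.

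Of 16 genes that act in the breakdown of CIP/KIP proteins, 7 lay below both DMSO libraries, 2 above and 7 overlapped, beside 27.8% of all genes below and 28% above. The median log2 fold change was -0.37, and -0.63 without YW-LF replicate 2. SKP2, the F-box protein that marks p27 for destruction, was at 11.2 and 3.75 CPM in YW-LF against 31.9 and 26.1 CPM in DMSO. PCNA, on which CRL4-CDT2 ubiquitinates p21, was at 63.9 and 21.8 CPM in YW-LF against 216 and 215 CPM in DMSO. YW-LF 2 was the lowest library for both genes. UBAC1, a subunit of the KPC ligase for p27, had a log2 fold change of -1.45 (SE 0.42), and the scaffold CUL4A of -0.88 (SE 0.35). RNF123, the other subunit of the KPC ligase, lay on the other side (log2 fold change 0.75, SE 0.36). It was at 59.7 and 82.6 CPM in YW-LF against 42.6 and 41.8 CPM in DMSO. In edgeR 0 passed over all genes and 5 were lower at an unadjusted p under 0.05, with 0 higher, beside 9.01% of all genes lower. DESeq2 called 3 lower and 0 higher, beside 4.58% of all genes lower.

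Of 24 transcription factors and cofactors that control the CIP/KIP genes, 7 lay above both DMSO libraries, 5 below and 12 overlapped, shares near those of all genes (28% above and 27.8% below). The median was 0.23. FOXO3, which activates CDKN1B, was at 143 and 216 CPM in YW-LF against 64.8 and 78.1 CPM in DMSO. Its relatives FOXO1 (27.8 and 5.70 CPM in YW-LF against 14.3 and 13.1 CPM in DMSO) and FOXO4 overlapped between the groups. CEBPB, a stress and inflammation factor, was at 228 and 106 CPM in YW-LF against 50.8 and 53.9 CPM in DMSO. TFAP4, a repressor of CDKN1A, was at 7.502 and 4.56 CPM in YW-LF against 20.3 and 17.96 CPM in DMSO. TP73, a relative of p53, had the lowest p of the list. It was at 0.776 and 0.227 CPM in YW-LF against 6.78 and 11.3 CPM in DMSO (log2 fold change -4.14, SE 0.81). BRCA1, a repair protein that can also act at the CDKN1A promoter, had a log2 fold change of -1.72 (SE 0.44). In edgeR 0 passed over all genes, and at an unadjusted p under 0.05 there were 4 higher and 3 lower, beside 11.5% and 9.01% of all genes. DESeq2 called as many, beside 6.02% of all genes higher and 4.58% lower. The sign of the median was negative in limma-voom (-0.011), with the replicate block (-0.0086) and when YW-LF replicate 1 (-0.016) or 2 (-0.062) was left out, and the median was 0.059 without DMSO replicate 1.

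Of 21 genes that control the INK4 genes, most of them Polycomb group members that silence CDKN2A, 6 lay above both DMSO libraries, 7 below and 8 overlapped, shares near those of all genes (28% above and 27.8% below). The median was -0.17, with -0.50 without YW-LF replicate 1, -0.049 without YW-LF replicate 2, -0.010 without DMSO replicate 1 and -0.39 without DMSO replicate 2. EZH2, a histone H3 lysine 27 methyltransferase, was at 35.1 and 41.7 CPM in YW-LF against 95.9 and 113 CPM in DMSO. EZH1, another methyltransferase of this residue, lay on the other side (log2 fold change 1.52, SE 0.45). It was at 72.8 and 151 CPM in YW-LF against 36.3 and 41.5 CPM in DMSO. KDM6B, a demethylase of the same residue, was at 63.3 and 86.0 CPM in YW-LF against 17.2 and 13.7 CPM in DMSO. JARID2, a partner of the EZH2 complex, was at 155 and 341 CPM in YW-LF against 50.5 and 59.0 CPM in DMSO. ID1, a repressor of CDKN2A, was at 5.27 and 1.88 CPM in YW-LF against 16.3 and 28.7 CPM in DMSO. BMI1, the best known silencer of the locus, overlapped between the groups (log2 fold change -0.21, SE 0.37). In edgeR 0 passed over all genes, and at an unadjusted p under 0.05 there were 3 higher and 3 lower, beside 11.5% and 9.01% of all genes. DESeq2 called as many, beside 6.02% of all genes higher and 4.58% lower.

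**Figure D5:**
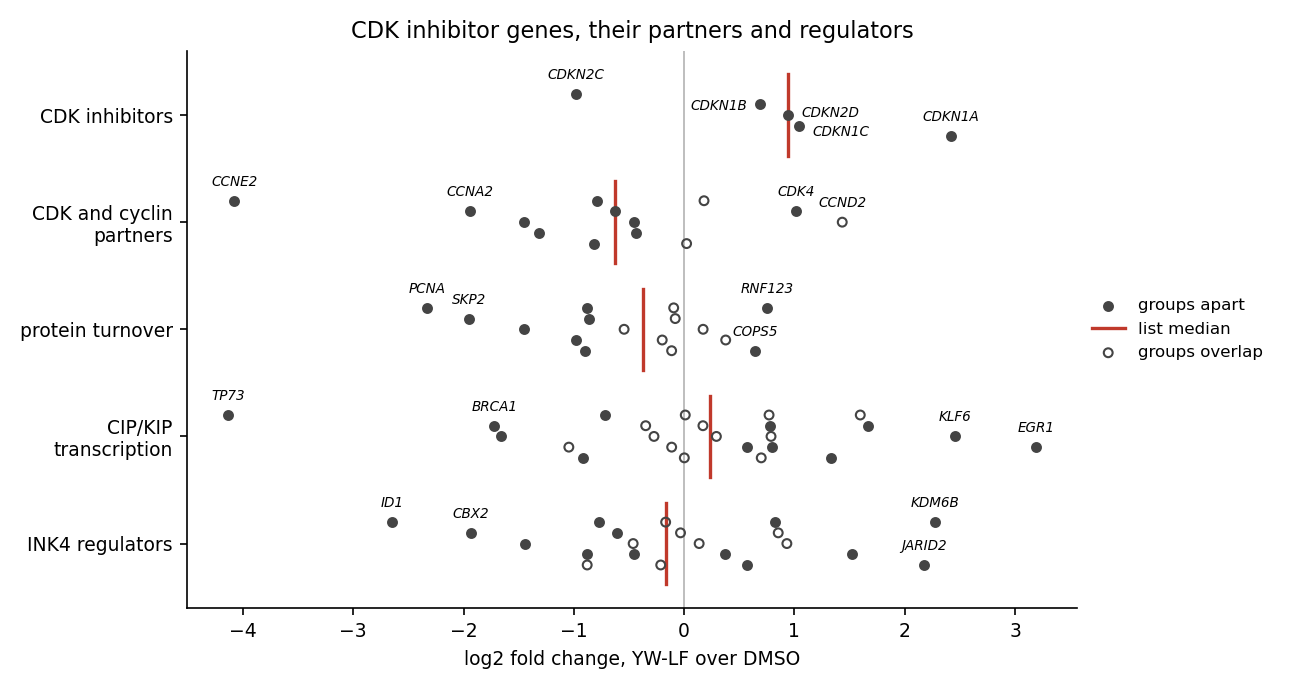
Log2 fold change, YW-LF over DMSO, of the 5 tested CDK inhibitor genes and of the genes in 4 lists of their partners and regulators, filled where the libraries of the groups do not overlap and open where they do, with the list median as a red line. The partners centre below 0, at -0.63, while both regulator lists spread to either side.

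The genes whose log2 CPM over the 4 libraries, centred on its mean, lay closest to each member were sought among 10808 genes with a mean of at least 5 CPM. Nearest to CDKN1A were LEPR, the leptin receptor, at a root mean square distance of 0.121 (log2), ICAM5 at 0.168 and LDAF1, a lipid droplet protein, at 0.201. LEPR was at 45.8 and 27.5 CPM in YW-LF against 10.2 and 5.26 CPM in DMSO. The distances for the other members were smaller. They are not divided by a gene's own spread over the libraries, and CDKN1A had the largest log2 fold change of the members. The distances of different members are therefore not on equal terms. Nearest to CDKN2C was SNRPD1, a core splicing protein, at 0.043, then ADSL, an enzyme of purine synthesis, and LPIN1. Nearest to CDKN2D were CHMP5, of the ESCRT-III complex, at 0.032, PEX5 and NUDT22. CDKN1B lay by ZNF606, TMEM71 and CCNDBP1, and CDKN1C by DDX50, NPDC1 and PPP2R5B. With 4 libraries such a likeness is a description only.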

How the data were processed

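Counts per gene were used as the authors deposited them, without normalization, as the values show (whole numbers with different totals). What aligner, counter or annotation made them was not given in the sources used here. Mouse builds (GRCm38, mm10) stand in the submitters' processing notes, but all 20263 identifiers are human Ensembl genes. A second deposited table was not used; 2 of its columns carry names found in no label. Symbols matched 20148 identifiers; positions and exon lengths (the union of a gene's exons) came from GENCODE 29 (GRCh38), by identifier.

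The test was edgeR 4.0.16 in R 4.3.3 (filterByExpr, 13816 genes; TMM; quasi-likelihood F-test, no covariates; Benjamini-Hochberg threshold 0.05). SE is the log2 fold change over the square root of F; log2 CPM used a prior count of 2. Alternatives were DESeq2 1.42.0, limma-voom (limma 3.58.1), other scalings and filters, the replicate block and leaving out each library. Methods were tested on simulated data with the same spread in both groups. The YW-LF libraries differed more from each other than the DMSO libraries did, and the simulation does not cover that case. With 2 libraries per group, p-values reflect no more than how these libraries vary. Limits for counts of 0 use 3 counts and cover counting error only.

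Named were all 7 members, the 4 genes of lowest p with a mean of at least 5 CPM in each list, 8 genes whatever their values (SKP2, CDK2, CDK4, CDK6, CCND1, BMI1, FOXO3 and MTAP), and the 3 nearest profiles of each tested member. RNF123 and EZH1 were named besides, after their values were seen, as counterparts of UBAC1 and EZH2. TP73 (mean 4.78 CPM, under the bound of 5), FOXO1 and FOXO4 were also named after their values were seen. Members and lists were chosen with earlier results of these data known.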

Additional observations from a re-analysis of the deposited data

How the results depend on the processing

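In all 60 combinations of a tested member and an alternative fit the sign of the log2 fold change was that of the main test. Without leaving out a library it ran from 2.41 to 2.52 for CDKN1A, 0.67 to 0.81 for CDKN1B, 0.998 to 1.08 for CDKN1C, -1.06 to -0.96 for CDKN2C and 0.91 to 1.01 for CDKN2D. CDKN1A passed in DESeq2 (2.43), without a count filter (2.41) and with the replicate block (2.46). With 1 library left out the ranges were 2.05 to 2.92 for CDKN1A, 0.48 to 0.86 for CDKN1B, 0.83 to 1.26 for CDKN1C, -1.45 to -0.63 for CDKN2C and 0.75 to 1.15 for CDKN2D.

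Over all genes 816 were called higher and 621 lower in DESeq2, 155 and 120 without a count filter, 186 and 145 with the replicate block, and 46 to 2963 and 16 to 2919 with 1 library left out, where the remaining pair sets the spread (46 and 28 when DMSO replicate 1 was absent, 48 and 16 for DMSO replicate 2, 2963 and 2919 for YW-LF replicate 1, 1450 and 1453 for YW-LF replicate 2). No label links a replicate number to a shared batch, and the differences between replicates 1 and 2 of YW-LF and of DMSO correlated with r = 0.042 across 13816 genes. Calls within the lists, in DESeq2, without a count filter and with the replicate block, were 3, 1 and 2 lower for the partners, 3, 0 and 1 lower for protein breakdown, 4, 0 and 1 higher with 3, 1 and 1 lower for CIP/KIP transcription, and 3, 1 and 2 higher with 3, 0 and 0 lower for the INK4 regulators. With 1 library left out they were 0 to 1 higher and 1 to 5 lower, 0 to 2 higher and 0 to 6 lower, 0 to 8 higher and 0 to 6 lower, and 0 to 6 higher and 0 to 8 lower, in the same order. The lists held 13, 16, 24 and 21 genes, in that order. Every upper end came from a fit without a YW-LF library. Of all genes, these fits called 21% higher and 20.7% lower without YW-LF replicate 1. Without YW-LF replicate 2 the shares were 10.1% and 10.2%. Scaling by library size alone put the median of all genes at 0.156 and of the CIP/KIP transcription list at 0.50.

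Of the ratio differences, gene length bears only on those of sums: the summed CIP/KIP over the summed INK4 level differed by 1.27 (log2), by 1.40 with the longest transcript as length and by 1.67 on plain counts. Leaving out 1 library, that difference ran from 0.955 to 1.58, that of CDKN2D over CDK4 from -0.554 to 0.671 and that of INK4 over CDK4 and CDK6 from -1.02 to 0.030. Depth limits CDKN2A and CDKN2B: a count of 0 allows 0.0597 to 0.0971 CPM, depending on the library.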
